A study of Mus musculus with 8 samples.

Results

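The mRNAs of the cytosolic ribosomal proteins were measured by RNA-seq in mouse E14 embryonic stem cells (ESCs) that carried either full-length BAZ2A or BAZ2A without its TAM domain. The genes were taken by symbol, as Rpl or Rps with a number and at most a short suffix, plus *Rpsa* and the stalk genes *Rplp0*, *Rplp1* and *Rplp2*, and without *Rpl10l* and numbered pseudogenes. This rule gave 87 of the 50902 genes in the data, 51 of the large and 36 of the small subunit. GENCODE release vM21 annotates 82 of them as protein-coding and 5 as pseudogenes (*Rpl6l*, *Rps12l1*, *Rps3a2*, *Rps3a3* and *Rps4l*), and 79 of the 87 had the same coordinates there as in the data. Because the rule reads symbols, it leaves out ribosomal proteins with other names, such as *Rpl36al*, *Fau* and *Rack1*, which are described with the related genes.

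BAZ2A is a chromatin protein that binds RNA through its TAM domain. In the BAZ2A wt line a Flag- and HA-tagged full-length BAZ2A had been inserted by PiggyBac transposase, and in the BAZ2A ΔTAM line the same construct without the TAM domain. Each line gave 4 libraries. Both transgenes were resistant to an siRNA against *Baz2a*, which all 8 samples received, and cells were collected 3 days after transfection from N2B27 medium with LIF and 2i. Per the methods, the lines came from wild-type ESCs by puromycin selection and isolation of single-cell clones, chosen by Western blot for a transgene level close to that of endogenous BAZ2A, and the number of clones behind the 4 libraries is not given. Nothing in the labels says that the libraries of a line came from separate cultures or days, so the p-values measure the spread between these libraries only, and a difference between the lines cannot be told apart from a difference between separately derived clones. *Baz2a* itself was higher in every BAZ2A ΔTAM library, 17.0 to 18.9 RPKM against 9.95 to 11.2, with endogenous and transgene reads not separated.

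A cytosolic ribosome joins a large subunit, which forms peptide bonds and holds the exit tunnel for the new chain, to a small subunit, which reads the mRNA. Their proteins are needed in near-equal numbers, and in dividing cells the mRNAs for them are among the most abundant. These mRNAs begin with a run of pyrimidines, the terminal oligopyrimidine (TOP) motif, through which mTOR and LARP1 regulate their translation and stability. Many of the genes also carry small nucleolar RNA (snoRNA) genes in their introns, and retroposed pseudogene copies are common in mammalian genomes.

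Reads on genes came to 6560881 to 8662855 per library. The ESC markers *Pou5f1*, *Nanog*, *Sox2*, *Zfp42*, *Esrrb* and *Klf4* were all present, with means of 0.756 to 27.3 RPKM in the lines, and *Fgf5* of epiblast-like cells was listed at 0 in all 8 libraries. *Mrpl53* and *Pdcd2*, which dividing cells use, were listed at 0 as well, so a 0 in these data does not show that a gene is silent. By the test used below, 3 of the 6 ESC markers (*Sox2*, *Esrrb* and *Klf4*) were lower in BAZ2A ΔTAM. Of 16 markers of other lineages and of feeder cells, 13 were too low to test, and of the rest *Eomes* and *Nes* were lower in BAZ2A ΔTAM. What part these differences have in the results below was not tested. The values are RPKM per kilobase of genomic gene span, introns included, so a level is compared between genes only as RPM (the reads of a gene scaled to all reads on genes of that library) and per kilobase of transcript (RPM per kb).

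The sequences around the start sites show what the members share beyond their names. RefSeq start sites on GRCm38.p6 were matched for 62 of the 87 members, some with several sites, which gave 74 windows of 300 bases. In the lines below, 60 bases are printed for each gene, 40 before and 20 from the first transcribed base onward, on the gene's own strand. They belong to the 15 members with a window that were called, the first 6 higher and the other 9 lower in BAZ2A ΔTAM. *Rpl35a* has 3 start sites, of which the first is shown. Capitals mark a run of C or T with at least 6 letters counted from a point no more than 5 bases from the first transcribed base.
Rpl39l (chr16:10170188-10170247, plus strand): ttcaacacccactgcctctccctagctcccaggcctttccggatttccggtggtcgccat
Rps12 (chr10:23787190-23787249, minus strand): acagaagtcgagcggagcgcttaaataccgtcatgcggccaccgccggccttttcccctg
Rpl35a (chr16:33056413-33056472, plus strand): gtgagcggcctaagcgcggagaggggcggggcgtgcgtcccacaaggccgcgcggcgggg
Rpl7l1 (chr17:46782637-46782696, minus strand): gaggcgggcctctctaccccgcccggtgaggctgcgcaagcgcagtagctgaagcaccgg
Rps27 (chr3:90213629-90213688, minus strand): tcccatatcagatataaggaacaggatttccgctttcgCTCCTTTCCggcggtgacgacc
Rps23 (chr13:90923082-90923141, plus strand): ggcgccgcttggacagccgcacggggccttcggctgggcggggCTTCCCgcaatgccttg
Rpl22l1 (chr3:28805468-28805527, plus strand): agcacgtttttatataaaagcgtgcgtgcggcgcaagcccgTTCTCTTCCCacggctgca
Rpl12 (chr2:32961672-32961731, plus strand): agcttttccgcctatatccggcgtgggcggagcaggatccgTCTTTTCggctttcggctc
Rps15 (chr10:80292391-80292450, plus strand): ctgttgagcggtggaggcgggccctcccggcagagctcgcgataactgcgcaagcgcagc
Rpl26 (chr11:68901526-68901585, plus strand): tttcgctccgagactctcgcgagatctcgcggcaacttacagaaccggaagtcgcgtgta
Rpl7a (chr2:26910767-26910826, plus strand): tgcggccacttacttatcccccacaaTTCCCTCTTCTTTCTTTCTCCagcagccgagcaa
Rps18 (chr17:33955646-33955705, minus strand): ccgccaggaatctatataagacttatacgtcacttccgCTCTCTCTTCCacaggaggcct
Rpl4 (chr9:64173347-64173406, plus strand): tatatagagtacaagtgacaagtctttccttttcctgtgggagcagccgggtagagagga
Rps4x (chrX:102189372-102189431, minus strand): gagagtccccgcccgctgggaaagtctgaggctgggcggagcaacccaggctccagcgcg
Rpl5 (chr5:107900488-107900547, plus strand): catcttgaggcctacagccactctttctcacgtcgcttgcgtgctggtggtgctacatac
Such a pyrimidine run was present in 27 of the 74 member windows (36.5%) against 13.7% of all 32851 windows of the same length. The count depends on the annotated first base, whose accuracy was not tested. The windows of *Rpl4*, *Rps12* and *Rpl5* hold runs of C and T that lie too far from it to count. The 36.5% is thus not the share of these mRNAs that begin with a TOP motif. Genes with a counted run were found in both directions. These were *Rps27*, *Rps23* and *Rpl35a* among the higher and *Rpl22l1*, *Rpl12*, *Rps18* and *Rpl7a* among the lower, *Rpl35a* through another of its start sites than the one shown. By gene, 3 of the 6 higher and 4 of the 9 lower members with a window had it, beside 19 of 45 that were called neither way. The letters CGGAAG, found on either strand, were in 45 of the 74 windows (60.8%) against 16.9% of all windows. The same letters were in 3 of 6 higher, 6 of 9 lower and 32 of 45 other members. The letters AAGATGGC, on either strand, were in 8 of 74 windows (10.8%) against 2.75% of all. By gene they were found in 3 of the 6 higher members (*Rpl35a*, *Rpl7l1* and *Rps27*), in none of the 9 lower ones and in 3 of 45 others. Of the other letters searched on either strand, GGGCGG was in 59.5% of member windows against 35.7% of all, CACGTG in 10.8% against 7.15%, and TATAAA in 9.46% against 13.6%. With so few genes these counts are given as a description of the windows.

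In BAZ2A wt cells, most members stood high. Of the 87 genes, 80 were above 100 RPM per kb, and the median of the protein-coding members was 876. Protein-coding small-subunit genes had a median of 1046 and large-subunit genes of 761. Each level rests on 1 annotated transcript per gene, the longest of those ranked best, and whether the cells use that transcript was not tested. *Rps15a*, for example, had 696 RPM but 134 RPM per kb, on a transcript of 5179 bases. The ranks, the percents of paralogues and the correlation with level given below depend on these lengths. *Rplp1*, an acidic protein of the lateral stalk that recruits elongation factors, was highest at 3400 ± 348 (SD, n = 4) RPM per kb. Next came *Rps12*, a protein of the small subunit's beak, at 2530 ± 59.2 and *Rpl8*, which lies near the peptidyl transferase centre, at 2379 ± 90.3. *Rpl8* and *Rpl4* at 2350 ± 21.7 did not differ beyond their spread, while *Rplp1* lay above both.

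At the other end, 5 members had fewer than 10 RPM per kb. *Rps12l1*, whose 100-base windows are all shared with other genes, had no read in any of the 8 libraries, a count that allows up to 3 reads per library by counting error. *Rps3a2* had 1 to 6 reads per library, *Rpl3l*, a paralogue known from heart and skeletal muscle, had 7 to 18, and *Rpl6l* had 6 to 13. *Rpl24*, which encodes a large-subunit protein found in every ribosome, had only 6 to 20 reads per library. Of its 100-base windows 75.8% also occur in other genes, and 47.0% of its exon length is shared with the overlapping gene *Gm28037*, which stood at 0. How the authors' counting treated reads that map to several places or genes is not given in the sources used here, so the low value of *Rpl24* is a value of the table and was not tested as a level of its mRNA. Across the 82 protein-coding members, Spearman's rho between level per kb and the share of windows found elsewhere was 0.19, a description over genes of the same libraries. *Rps27* had 98.4% of its windows in other genes and *Rps12* 81.6%, and both stood high, at 1417 and 2530 RPM per kb.

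**Figure D1:**
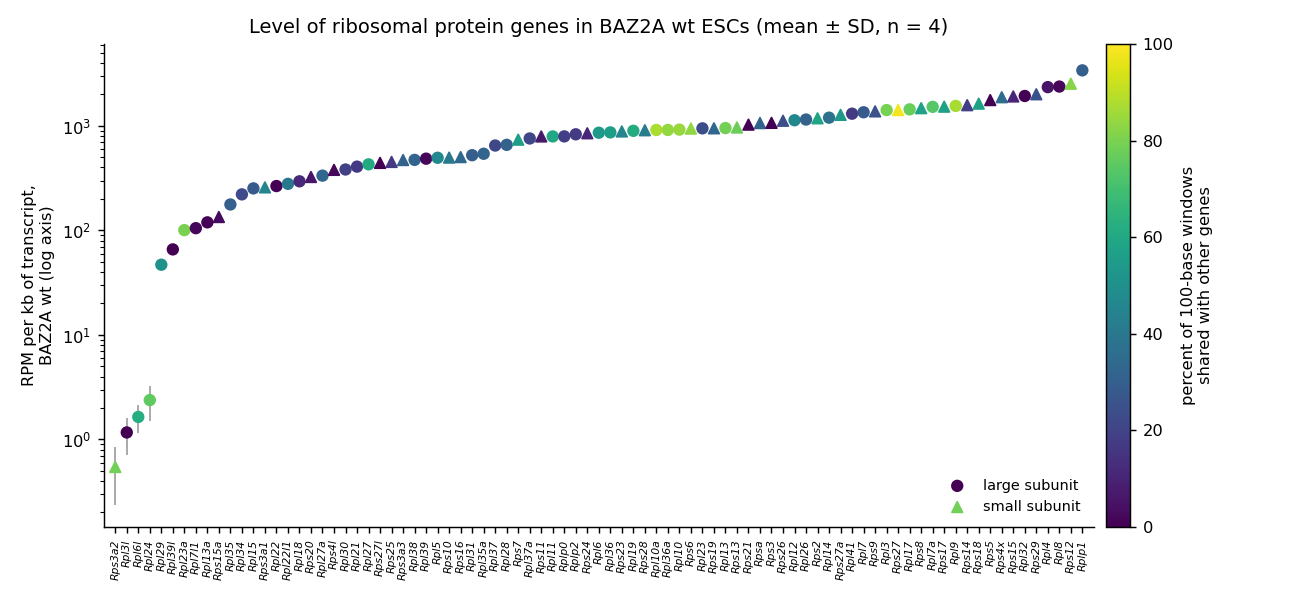
Level of members with at least 1 read, in BAZ2A wt ESCs, in RPM per kb of transcript on a log axis, as mean ± SD over 4 libraries, ordered from low to high. Circles are large-subunit and triangles small-subunit genes, colour gives the percent of 100-base windows shared with other genes, and 4 genes (*Rps3a2*, *Rpl3l*, *Rpl6l* and *Rpl24*) lie far below the rest.

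The comparison of BAZ2A ΔTAM with BAZ2A wt asked whether the mRNAs of ribosomal proteins differed when the TAM domain was missing. Of the 87 members, 83 had a mean of at least 0.1 RPKM and entered the limma test on log2(RPKM + 0.1), with Benjamini-Hochberg adjustment over all 9000 genes tested. At an adjusted p under 0.05, 7 members were higher in BAZ2A ΔTAM, 13 were lower and 63 were neither. Among all genes tested, 19.9% were higher and 15.9% lower, so that the share of members called higher (8.43%) was below the background and the share called lower (15.7%) close to it in this fit. The median log2 fold change was -0.028 over the members and 0.011 over all genes. Every member tested had a log2 fold change of less than 0.58 in size, whereas 492 of the 9000 genes reached that size. In 7 of the tested members every BAZ2A ΔTAM library lay above every BAZ2A wt library, and in 13 below, where 20.5% and 16.7% of all genes did so. RPKM are relative values of bulk RNA, in which less RNA of a gene per cell and fewer cells that express it cannot be told apart.

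The counts moved with the libraries and the scaling. Leaving out BAZ2A wt replicate 4 gave 4 higher and 26 lower members, leaving out BAZ2A wt replicate 1 or 2 gave 6 lower, and leaving out BAZ2A wt replicate 3 gave 4 higher and 7 lower. Without BAZ2A wt replicate 4, 31.3% of the members and 15.4% of all genes were lower, while without BAZ2A wt replicate 1 these shares were 7.23% and 12.6%, so whether the members' share of lower calls was above, near or below that of all genes turned on 1 library. Without BAZ2A ΔTAM replicate 1, 11 members were higher, and without replicate 2, 3 or 4 of that line 4 were. Scaling to the genes that are not ribosomal proteins gave 6 higher and 21 lower, the latter 25.3% of the members beside 18.1% of all genes. The members' share of higher calls was below that of all genes in each of the 19 alternatives. On the reads recovered from the RPKM, limma voom called 13 higher and 22 lower of 85 members, beside 22.5% and 21.5% of 12657 genes. Under the 19 alternatives tried, all 20 called members kept their direction, and 8 kept the call in each, all of them of the large subunit. Among these were *Rpl39l*, *Rpl30* and *Rpl35a*, which were higher, and *Rpl22l1*, *Rpl12*, *Rpl17* and *Rpl3*, which were lower. Reads that also fit other genes could have been split or lost in the counting of several of these, since 79.4% of the 100-base windows of *Rpl3* occur elsewhere, 77.1% of *Rpl17*, 46.8% of *Rpl12*, 40.6% of *Rpl22l1*, 32.0% of *Rpl35a* and 19.4% of *Rpl30*.

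**Figure D2:**
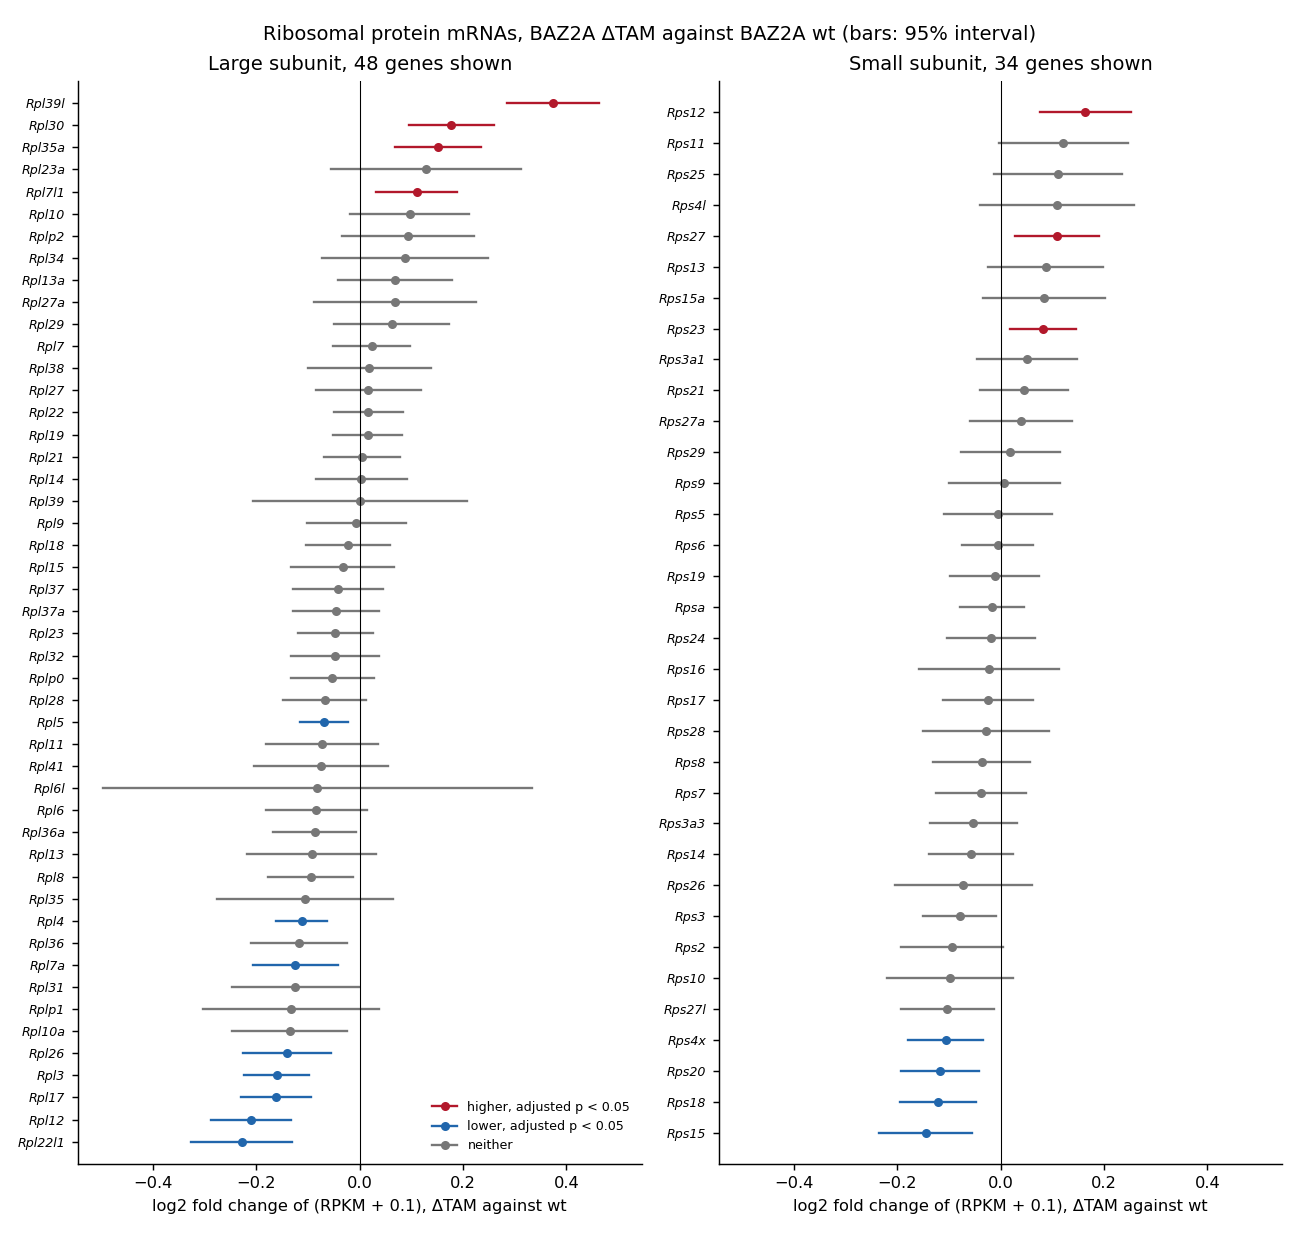
Log2 fold change of RPKM + 0.1 in BAZ2A ΔTAM against BAZ2A wt for members tested, 48 of the large subunit on the left and 34 of the small subunit on the right, with 95% intervals from limma. Red marks the 7 members called higher and blue 12 called lower at an adjusted p under 0.05, and grey the 63 called neither.

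Among the members that were higher, *Rpl39l* rose most. It encodes a paralogue of RPL39, a short protein in the wall of the exit tunnel, and is known for its use in male germ cells. The gene (chr16:10170226-10174911 of mm10) had 1.67, 1.79, 1.67 and 1.60 RPKM in BAZ2A wt and 2.21, 2.21, 2.29 and 2.13 RPKM in BAZ2A ΔTAM. All 4 BAZ2A ΔTAM libraries lay above all 4 BAZ2A wt libraries, at 382 to 579 reads per library. The log2 fold change was 0.37 ± 0.038 (SE, adjusted p = 0.000319), and none of its 100-base windows occurs in another gene. *Rpl30*, a protein at the bridge between the subunits, lies at chr15:34440505-34443640 and had 15.8, 16.2, 16.2 and 16.2 RPKM in BAZ2A wt and 17.0, 18.5, 18.9 and 18.6 RPKM in BAZ2A ΔTAM. The lines did not overlap, and its log2 fold change was 0.18 ± 0.035 (SE, adjusted p = 0.00655). *Rpl35a* (chr16:33056453-33060189), a large-subunit protein mutated in some patients with Diamond-Blackfan anaemia, had 11.3, 11.1, 11.3 and 11.0 RPKM in BAZ2A wt and 11.7, 12.9, 12.9 and 12.1 RPKM in BAZ2A ΔTAM. Its lowest BAZ2A ΔTAM library stood just above the highest BAZ2A wt library, with a log2 fold change of 0.15 ± 0.036 (SE, adjusted p = 0.0141). *Rpl7l1* (chr17:46773907-46782656), a paralogue of *Rpl7*, had 4.78, 4.64, 4.76 and 4.45 RPKM in BAZ2A wt and 4.83, 5.11, 5.21 and 4.99 RPKM in BAZ2A ΔTAM. The lines touch without overlap, the log2 fold change was 0.11 ± 0.034 (SE, adjusted p = 0.0371), and the call was lost in 8 of the 19 alternatives.

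In the small subunit 3 members were higher. *Rps12* (chr10:23785183-23787275) had 104, 105, 109 and 102 RPKM in BAZ2A wt and 110, 123, 119 and 120 RPKM in BAZ2A ΔTAM. All 4 BAZ2A ΔTAM libraries lay above all 4 BAZ2A wt libraries, replicate 1 by a small margin. Its log2 fold change was 0.16 ± 0.038 (SE, adjusted p = 0.0121), and the call was lost when genes of low values were not filtered (adjusted p = 0.0739). *Rps27* (chr3:90212522-90213651), a zinc-finger protein of the small subunit, had 66.3, 66.6, 64.1 and 60.8 RPKM in BAZ2A wt and 67.0, 70.7, 71.1 and 69.0 RPKM in BAZ2A ΔTAM, a log2 fold change of 0.11 ± 0.035 (SE, adjusted p = 0.0440). The gap between the lines was small, and the call was lost in 9 of the 19 alternatives. *Rps23* (chr13:90922958-90924950), which lies at the decoding centre, had 62.7, 63.2, 61.7 and 60.2 RPKM in BAZ2A wt and 63.3, 65.7, 65.2 and 68.1 RPKM in BAZ2A ΔTAM. Its log2 fold change of 0.082 ± 0.027 (SE, adjusted p = 0.0499) was the smallest among the higher members, and the call was lost in 13 of the 19 alternatives.

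**Figure D3:**
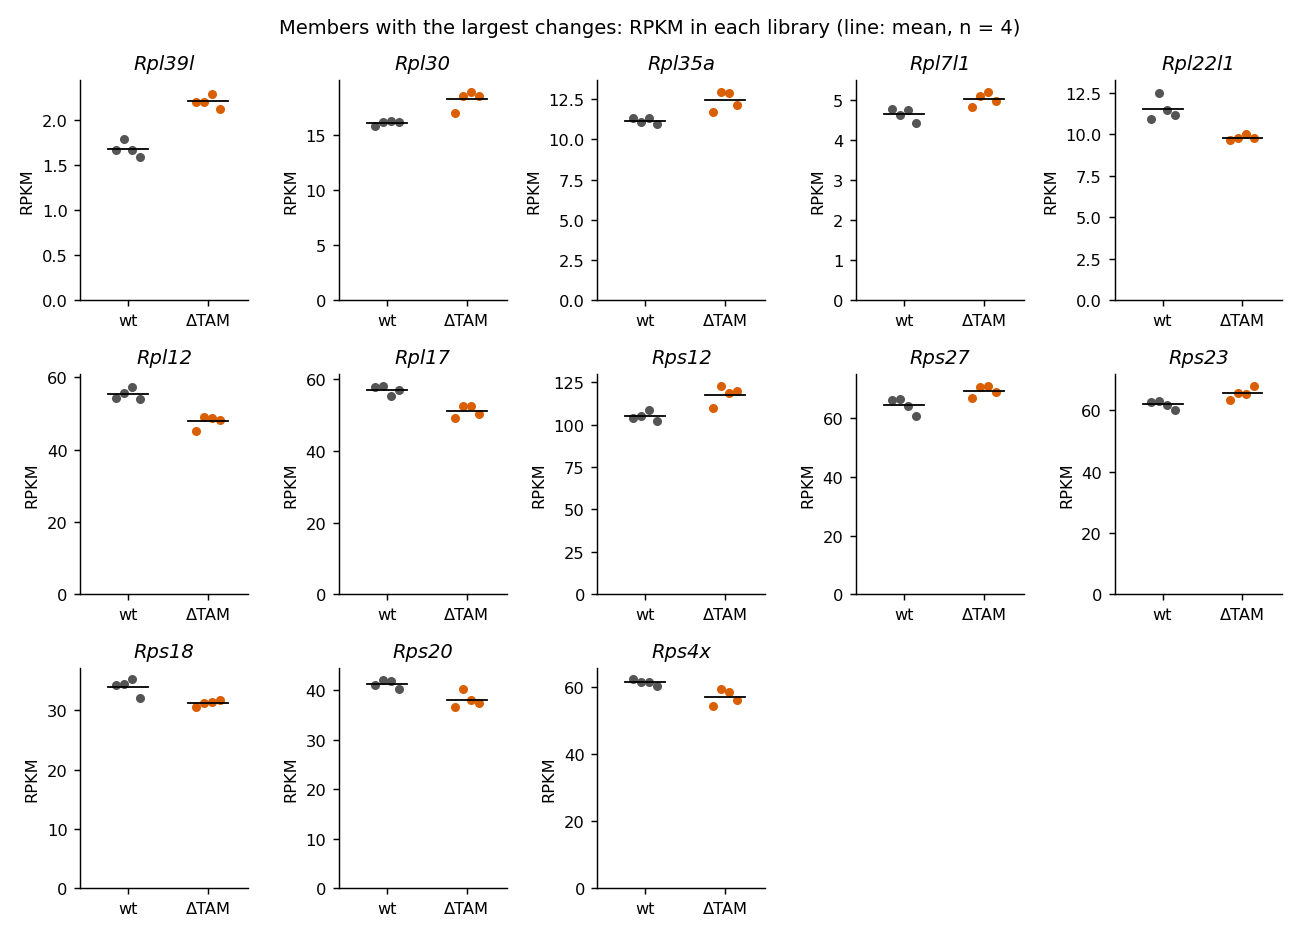
RPKM in each of the 4 BAZ2A wt and 4 BAZ2A ΔTAM libraries for 13 members with the largest called changes and no overlap between the lines, with axes that start at 0 and a line at the mean. The first 4 panels and *Rps12*, *Rps27* and *Rps23* are higher in BAZ2A ΔTAM and the other 6 lower.

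The members that were lower were led by *Rpl22l1*, a paralogue of *Rpl22* that also binds RNA outside the ribosome. It lies at chr3:28805436-28807424 and had 10.9, 12.5, 11.5 and 11.2 RPKM in BAZ2A wt and 9.64, 9.79, 10.1 and 9.77 RPKM in BAZ2A ΔTAM. The BAZ2A ΔTAM libraries lay close together and all below BAZ2A wt, with a log2 fold change of -0.23 ± 0.042 (SE, adjusted p = 0.00453). *Rpl12* (chr2:32961559-32965345), which forms the base of the stalk where elongation factors dock, had 54.2, 55.6, 57.4 and 54.0 RPKM in BAZ2A wt and 45.1, 49.1, 48.6 and 48.3 RPKM in BAZ2A ΔTAM. The gap between the lines, from 49.1 to 54.0 RPKM, exceeded the range within either, and the log2 fold change was -0.21 ± 0.034 (SE, adjusted p = 0.00240). *Rpl17*, which lines the narrow part of the exit tunnel, had 58.0, 58.2, 55.4 and 57.2 RPKM in BAZ2A wt and 49.2, 52.5, 52.5 and 50.2 RPKM in BAZ2A ΔTAM, with no overlap and a log2 fold change of -0.16 ± 0.029 (SE, adjusted p = 0.00393). *Rpl3*, which reaches the peptidyl transferase centre, had 20.1, 20.1, 20.3 and 20.4 RPKM in BAZ2A wt and 17.4, 18.6, 18.6 and 17.8 RPKM in BAZ2A ΔTAM. Its BAZ2A wt libraries were nearly identical and all above the BAZ2A ΔTAM libraries, with a log2 fold change of -0.16 ± 0.027 (SE, adjusted p = 0.00317).

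A further 4 large-subunit members were lower by smaller amounts. *Rpl26*, at the rim of the tunnel exit, had a log2 fold change of -0.14 ± 0.036 (SE, adjusted p = 0.0195), and *Rpl7a* of -0.12 ± 0.036 (SE, adjusted p = 0.0288). *Rpl4*, which reaches into the exit tunnel and had the most reads of all members (21770 to 29363 per library), had 102, 102, 101 and 102 RPKM in BAZ2A wt and 91.0, 95.9, 93.7 and 95.5 RPKM in BAZ2A ΔTAM. Its log2 fold change was -0.11 ± 0.021 (SE, adjusted p = 0.00490). *Rpl5*, which carries the 5S ribosomal RNA together with RPL11, fell by 0.069 on the log2 scale (SE 0.020, adjusted p = 0.0304), and *Rpl11* had a log2 fold change of -0.073 ± 0.047 (SE, adjusted p = 0.262), which did not pass. Each of these 4 calls was lost under at least 1 alternative.

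In the small subunit 4 members were lower. *Rps15*, a protein of the head whose tail reaches the decoding site, had 87.5, 89.1, 86.5 and 79.7 RPKM in BAZ2A wt and 78.0, 75.1, 76.6 and 80.2 RPKM in BAZ2A ΔTAM. One BAZ2A ΔTAM library overlapped the lowest BAZ2A wt library, and the log2 fold change was -0.14 ± 0.039 (SE, adjusted p = 0.0223). *Rps18* (chr17:33951999-33956001), a protein of the head of the small subunit, had 34.3, 34.4, 35.2 and 32.0 RPKM in BAZ2A wt and 30.6, 31.2, 31.4 and 31.7 RPKM in BAZ2A ΔTAM, a log2 fold change of -0.12 ± 0.032 (SE, adjusted p = 0.0206). *Rps20* (chr4:3831334-3835665) had 41.0, 42.2, 41.8 and 40.3 RPKM in BAZ2A wt and 36.6, 40.2, 38.1 and 37.5 RPKM in BAZ2A ΔTAM, a log2 fold change of -0.12 ± 0.032 (SE, adjusted p = 0.0252). *Rps4x* (chrX:102184941-102189394), the X-linked copy of the RPS4 gene, had 62.1, 61.5, 61.5 and 60.2 RPKM in BAZ2A wt and 54.2, 59.4, 58.4 and 56.1 RPKM in BAZ2A ΔTAM, a log2 fold change of -0.11 ± 0.031 (SE, adjusted p = 0.0319). In the last 3 genes the lines did not overlap but lay close, and their calls were lost in 5, 6 and 7 of the 19 alternatives. That of *Rps15* was lost in 7.

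The acidic stalk was mixed. Its anchor *Rplp0* had 38.7, 37.9, 38.7 and 35.4 RPKM in BAZ2A wt and 35.2, 37.2, 36.7 and 35.9 RPKM in BAZ2A ΔTAM, and its log2 fold change of -0.053 ± 0.035 (SE, adjusted p = 0.269) did not pass. *Rplp1* had 205, 222, 205 and 171 RPKM in BAZ2A wt and 188, 181, 184 and 176 RPKM in BAZ2A ΔTAM. BAZ2A wt replicate 4 was the lowest of all 8 libraries for *Rplp1* and lay below every BAZ2A ΔTAM library, while the other three BAZ2A wt libraries lay above them all. The log2 fold change was -0.13 ± 0.073 (SE, adjusted p = 0.194), and without that library it was -0.21 (adjusted p = 0.00629). *Rplp2*, the partner of *Rplp1* in the stalk, had 27.1, 29.2, 30.0 and 26.8 RPKM in BAZ2A wt and 28.9, 32.4, 31.1 and 28.4 RPKM in BAZ2A ΔTAM and a log2 fold change of 0.093 ± 0.055 (SE, adjusted p = 0.227), opposite in sign to *Rplp1*. *Rpsa*, a small-subunit protein also known as a laminin receptor, had 65.1, 66.3, 66.6 and 64.2 RPKM in BAZ2A wt and 62.1, 66.6, 65.8 and 65.0 RPKM in BAZ2A ΔTAM, and its log2 fold change of -0.016 ± 0.027 (SE, adjusted p = 0.677) was within the spread of the libraries.

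Paralogues were also read against their parent genes. *Rpl39l* differed between the lines while *Rpl39* had 14.3, 15.4, 16.3 and 15.4 RPKM in BAZ2A wt and 12.9, 17.1, 16.5 and 15.2 RPKM in BAZ2A ΔTAM, with a log2 fold change of 0.00041 whose standard error was 0.089 (adjusted p = 0.998). Per kilobase of transcript, *Rpl39l* stood at 14.5, 14.3, 12.7 and 12.8% in BAZ2A wt and 21.2, 15.9, 17.2 and 17.3% in BAZ2A ΔTAM of the level of *Rpl39*, and the lines did not overlap. *Rpl22l1* stood at 97.9, 113, 105 and 104% in BAZ2A wt and 90.2, 85.6, 88.1 and 89.5% in BAZ2A ΔTAM of the level of *Rpl22*, again without overlap. *Rpl22* itself had 9.90, 9.82, 9.68 and 9.55 RPKM in BAZ2A wt and 9.48, 10.1, 10.1 and 9.68 RPKM in BAZ2A ΔTAM, a log2 fold change of 0.016 ± 0.029 (SE, adjusted p = 0.698). So *Rpl22l1* was close to its parent in BAZ2A wt and below it in each BAZ2A ΔTAM library.

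*Rpl7l1* stood at 7.97, 7.75, 7.76 and 7.64% in BAZ2A wt and 8.37, 8.29, 8.20 and 8.24% in BAZ2A ΔTAM of the level of *Rpl7*, which had a log2 fold change of 0.023 ± 0.032 (SE, adjusted p = 0.623). *Rps27l*, a paralogue of *Rps27* that responds to p53, had 9.51, 9.79, 9.90 and 9.14 RPKM in BAZ2A wt and 8.53, 9.43, 8.77 and 8.94 RPKM in BAZ2A ΔTAM and a log2 fold change of -0.10 ± 0.039 (SE, adjusted p = 0.0749), while *Rps27* was higher. Its level was 30.1, 30.9, 32.4 and 31.6% in BAZ2A wt and 26.7, 28.0, 25.9 and 27.2% in BAZ2A ΔTAM of that of *Rps27*, all BAZ2A ΔTAM libraries being below all BAZ2A wt libraries. *Rps4l*, annotated as a transcribed pseudogene, had 54.3, 62.6, 58.7 and 50.5 RPKM in BAZ2A wt and 60.5, 62.6, 61.6 and 58.6 RPKM in BAZ2A ΔTAM and stood at 18.4 to 22.3% of the level of *Rps4x* in BAZ2A wt and 22.9 to 24.4% in BAZ2A ΔTAM. Its own log2 fold change was 0.11 ± 0.064 (SE, adjusted p = 0.223). *Rps3a3*, also annotated as a pseudogene, stood at 178 to 193% of the level of *Rps3a1* in BAZ2A wt and 160 to 187% in BAZ2A ΔTAM, where the lines overlap. Neither *Rps3a3*, at a log2 fold change of -0.053 ± 0.036 (SE, adjusted p = 0.296), nor *Rps3a1*, at 0.051 ± 0.042 (SE, adjusted p = 0.377), passed the test. *Rpl6l* and *Rpl3l* each stood below 0.23% of their parents *Rpl6* and *Rpl3*. *Rpl6* had 33.8, 33.6, 35.4 and 33.8 RPKM in BAZ2A wt and 29.6, 33.1, 33.1 and 33.2 RPKM in BAZ2A ΔTAM, where all BAZ2A ΔTAM libraries were below BAZ2A wt but the log2 fold change of -0.084 ± 0.042 (SE, adjusted p = 0.158) did not pass.

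The subunits were then set against each other. Of the 49 large-subunit genes tested, 4 were higher and 9 lower (8.16% and 18.4%), with a median log2 fold change of -0.047. Of the 34 small-subunit genes, 3 were higher and 4 lower (8.82% and 11.8%), with a median of -0.017. Beside 19.9% higher and 15.9% lower among all genes, both subunits had fewer higher calls, and their shares of lower calls lay on either side of that value and near it. The difference between the subunits' counts was not tested. Summed over genes, the reads on all members made up 6.51 to 6.89% of the reads on genes in BAZ2A wt and 6.34 to 6.71% in BAZ2A ΔTAM, and these ranges overlap. The large-subunit genes took 3.76, 3.82, 3.81 and 3.62% in BAZ2A wt and 3.47, 3.66, 3.61 and 3.55% in BAZ2A ΔTAM. The small-subunit genes took 3.02, 3.07, 3.05 and 2.89% and 2.86, 3.05, 3.00 and 2.96%. Within each subunit the lines overlapped, BAZ2A wt replicate 4 and BAZ2A ΔTAM replicate 1 being the lowest of their lines in both.

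The ratio of large- to small-subunit reads was steadier than either share. It was 1.25, 1.24, 1.25 and 1.25 in BAZ2A wt (mean 1.247 ± 0.00268, SD, n = 4) and 1.21, 1.20, 1.20 and 1.20 in BAZ2A ΔTAM (mean 1.204 ± 0.00695, SD, n = 4), so that all BAZ2A ΔTAM libraries lay below all BAZ2A wt libraries, a difference of -3.44%. No test is given for this ratio, which sums over the members. With any library left out, the difference between the lines' means stayed between -0.0461 and -0.0411. It was -0.0188 when the 20 called members were taken out, and the lines still did not overlap, at 1.075 to 1.095 against 1.063 to 1.074. Restricted to the 35 members with at most 25% of their windows in other genes, the difference was -0.0223 and the lines overlapped, at 1.153 to 1.191 against 1.139 to 1.160. In terms of the middle gene, the median of the large-subunit members minus that of the small-subunit members, each relative to the mean of BAZ2A wt, was -0.0053 to 0.014 in BAZ2A wt libraries and -0.037 to -0.013 in BAZ2A ΔTAM libraries on the log2 scale.

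**Figure D4:**
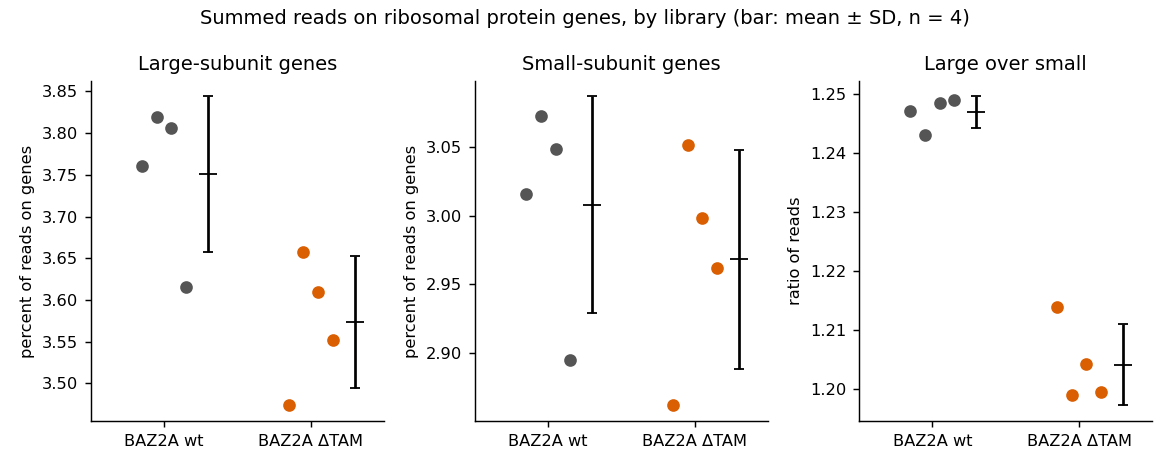
Percent of reads on genes that fell on large-subunit genes (left) and small-subunit genes (middle), and the ratio of the former to the latter (right), for each library, with mean ± SD over 4 libraries. The y axes do not start at 0. The shares of the lines overlap, whereas the ratio is 1.243 to 1.249 in BAZ2A wt and 1.199 to 1.214 in BAZ2A ΔTAM.

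In RPM, the members that differed most were abundant ones. *Rpl4* went from 3614 to 3335, *Rpl3* from 1915 to 1708 and *Rpl12* from 1407 to 1213 RPM, all large-subunit genes that passed the test. On the other side, *Rps12* went from 1478 to 1652, the largest gain of any member. Without *Rpl4* and *Rplp1* the difference of the ratio was -0.0305, and the lines did not overlap.

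**Figure D5:**
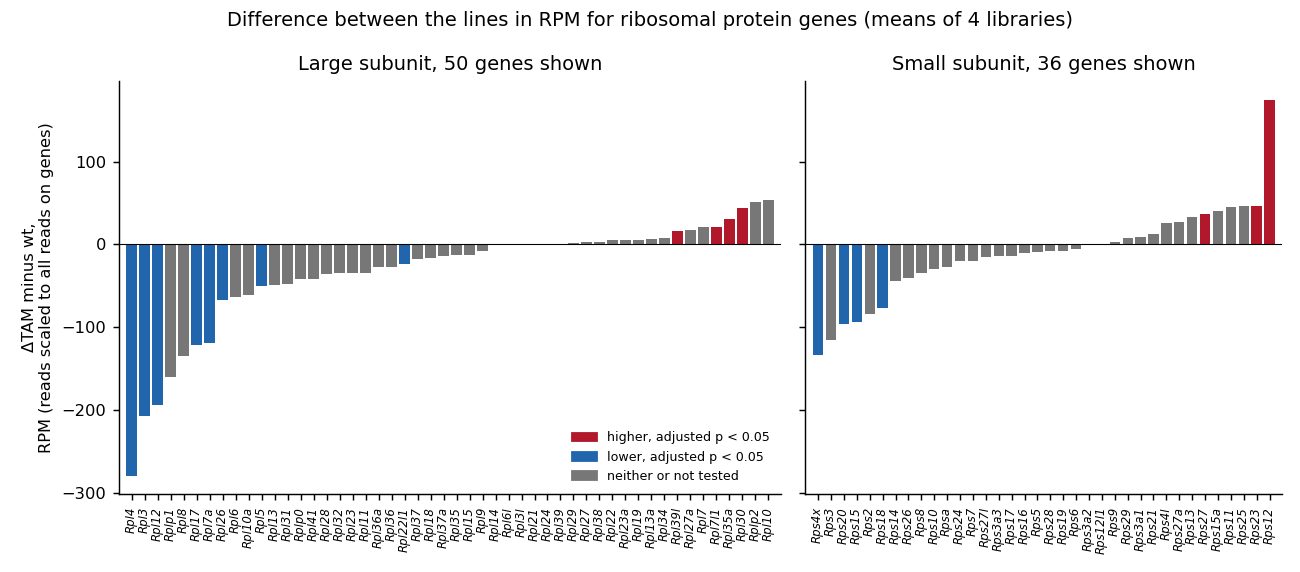
Difference between the line means (BAZ2A ΔTAM minus BAZ2A wt, 4 libraries each) in RPM for 50 large-subunit and 36 small-subunit genes, ordered by size, with red and blue for members called higher and lower. The most negative bars are *Rpl4*, *Rpl3* and *Rpl12* at -279, -207 and -194 RPM, and the tallest positive bar is *Rps12* at 175.

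Among properties of the genes, the level was the one with the largest rank correlation with the change. Across the 80 protein-coding members tested, Spearman's rho between the log2 fold change and the level per kb was -0.29. It was -0.10 with the share of windows in other genes, -0.036 with transcript length and -0.0041 with the number of snoRNA genes inside the gene. These are descriptions over genes of the same 8 libraries. Of the 30 members with snoRNA genes inside, 2 were higher and 8 lower (6.67% and 26.7%), and of the 53 tested without, 5 were higher and 5 lower (9.43% each), beside 19.9% and 15.9% of all genes. This split was not tested. Of the 68 members with a mean of at least 10 RPKM, 5 were higher and 13 lower (7.35% and 19.1%), beside 24.1% and 17.8% of the 191 genes at that level among all genes. Those 191 genes include the 68 members, so the members are partly compared with themselves. Because RPKM is per gene span here, this cut depends on span as well as on level. Entries for numbered ribosomal protein pseudogenes were few in reads, at 0.0224 to 0.0316% of reads on genes per library, and the lines overlapped.

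Related genes of translation were read from 5 lists. Among ribosomal proteins outside the symbol rule, *Fau*, which encodes RPS30 fused to a ubiquitin-like protein, and *Rack1*, a signalling scaffold on the small subunit, had log2 fold changes of 0.019 ± 0.050 (SE, adjusted p = 0.794) and -0.036 ± 0.028 (SE, adjusted p = 0.351). *Rpl36al*, a near copy of *Rpl36a*, was at 0.118 RPKM in BAZ2A wt and 0.158 RPKM in BAZ2A ΔTAM on average, and its log2 fold change of 0.27 ± 0.20 (SE, adjusted p = 0.330) did not pass.

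Of 20 elongation factors and other mRNAs with a TOP motif, 3 were higher and 5 lower, with a median log2 fold change of 0.010. The 40.0% called in either direction was close to the 35.8% of all genes. *Eif4a2*, an RNA helicase of the initiation complex, had 30.9, 29.8, 30.6 and 33.9 RPKM in BAZ2A wt and 23.4, 20.7, 22.2 and 21.5 RPKM in BAZ2A ΔTAM, a log2 fold change of -0.51 ± 0.051 (SE, adjusted p = 0.000279). *Eef2*, which moves the ribosome along the mRNA, had 139, 143, 141 and 136 RPKM in BAZ2A wt and 111, 112, 110 and 111 RPKM in BAZ2A ΔTAM, a log2 fold change of -0.33 ± 0.021 (SE, adjusted p = 4.54e-05). Both values were more negative than that of any cytosolic ribosomal protein gene tested. *Eef1a1*, which brings aminoacyl-tRNA to the ribosome, also fell, by 0.16 on the log2 scale (adjusted p = 0.00117), while *Tpt1* and *Eif3k* rose by 0.22 and 0.28 (adjusted p = 0.00631 and 0.00176).

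Of 71 mitochondrial ribosomal protein genes tested, 10 were higher and 14 lower, with a median log2 fold change of -0.061. *Mrpl36* had 1.21, 1.32, 1.43 and 1.28 RPKM in BAZ2A wt and 1.59, 1.71, 1.96 and 1.69 RPKM in BAZ2A ΔTAM, a log2 fold change of 0.38 ± 0.070 (SE, adjusted p = 0.00469). In contrast, *Mrpl2* had 3.14, 3.40, 3.50 and 3.18 RPKM in BAZ2A wt and 2.55, 2.85, 2.59 and 2.63 RPKM in BAZ2A ΔTAM, a log2 fold change of -0.31 ± 0.049 (SE, adjusted p = 0.00236). These shares, 14.1% and 19.7%, stood beside 8.43% and 15.7% for the cytosolic members and 19.9% and 15.9% for all genes.

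Of 13 regulators tested, 1 was higher and 4 lower, 38.5% called in either direction beside 35.8% of all genes. *Mycn*, a transcription factor of the *Myc* family, had 3.32, 3.32, 3.52 and 3.11 RPKM in BAZ2A wt and 1.59, 2.02, 1.76 and 1.65 RPKM in BAZ2A ΔTAM, a log2 fold change of -0.89 ± 0.074 (SE, adjusted p = 0.000127). *Yy1*, a transcription factor with sites in many promoters, had 0.602, 0.547, 0.567 and 0.588 RPKM in BAZ2A wt and 0.763, 0.779, 0.822 and 0.800 RPKM in BAZ2A ΔTAM, a log2 fold change of 0.40 ± 0.035 (SE, adjusted p = 0.000155). *Mtor*, the kinase that controls TOP mRNAs, fell by 0.18 on the log2 scale (adjusted p = 0.00334), *Eif4ebp1*, which encodes a translation repressor under mTOR, by 0.33 (adjusted p = 0.00237), and *Tsc1*, an inhibitor of mTOR, by 0.12 (adjusted p = 0.0403). *Larp1*, which binds the TOP motif, had a log2 fold change of -0.020 ± 0.030 (SE, adjusted p = 0.641). Of 8 chaperones and assembly factors of single ribosomal proteins tested, *Pdcd2l* fell, with 0.480, 0.473, 0.463 and 0.417 RPKM in BAZ2A wt and 0.393, 0.402, 0.398 and 0.394 RPKM in BAZ2A ΔTAM and a log2 fold change of -0.17 ± 0.038 (SE, adjusted p = 0.0119), and the other 7 were called neither way, so that 12.5% were called beside 35.8% of all genes. Over the 5 lists together, 15 of 116 tested genes were higher and 24 lower, 12.9% and 20.7% beside 19.9% and 15.9% of all genes.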

How the data were processed

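Poly(A) RNA of 8 samples was prepared with a stranded kit and sequenced as single 100 bp reads. The authors trimmed reads (Trimmomatic 0.36 per the submitters' processing notes), removed ribosomal RNA reads, mapped with STAR to mm10, and turned coverage over exons into RPKM with a pipeline of their own; replicates were not pooled in the deposited table. Annotation release, use of strand and treatment of multi-mapping reads are not given in the sources used here. Deposited RPKM multiplied by gene span (end minus start) came in whole steps per library (99.5 to 99.6% of values within 0.02), taken as reads. This gave 6560881 to 8662855 reads per library, and intervals from them cover counting error only.

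Entries that repeated the values of another entry of their symbol (386) were set aside. limma 3.58.1 in R 4.3.3 (lmFit, eBayes with trend) was fitted on log2(RPKM + 0.1) for 9000 genes averaging 0.1 RPKM or more, a scale that understates the change of low genes, without covariates. Called means an adjusted p under 0.05. voom with TMM scaling used genes averaging 10 reads or more. The code was tested on simulated data. Values in every library are given for the 4 largest increases and decreases per subunit among called members averaging 1 RPKM or more whose libraries did not overlap, the stalk, Rpsa, paralogues with their parents, the 3 highest and 3 lowest per kb, and 2 genes of each related list. Members and lists were chosen with earlier results of these data known, and genes outside this rule after their values were seen. Shared windows were counted as 100-base stretches of the principal transcript found in GENCODE vM21 transcripts of other genes. Python 3.11.15 was used for annotation, promoters and figures. Counts and sums cover all members, and some genes are not reported here by name.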

Additional observations from a re-analysis of the deposited data

Results flagged for a closer look

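The level of *Rpl6*, a large-subunit protein and the parent of *Rpl6l*, had 1 library apart from the rest in each line. In BAZ2A ΔTAM, replicate 1 had 29.6 RPKM and the other three 33.1 to 33.2 RPKM. In BAZ2A wt, replicate 3 had 35.4 RPKM and the other three 33.6 to 33.8 RPKM. The gap to the nearest library was 0.974 and 0.899 of the line's whole range, above Dixon's critical value for 4 libraries. These were 2 of 86 groups examined, and chance alone passes this limit in about 1 of 20.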

How the results depend on the processing

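Pseudocounts of 0.01 and 1 RPKM, median-ratio scaling and robust eBayes left every count of members within 1.5 times the value reported. Without a filter on low values 3 members were higher and 7 lower, all of the large subunit. The small subunit had 0 called in either direction by limma over 25439 genes, with 3 higher and 5 lower at an unadjusted p under 0.05. Quantile scaling gave 11 higher and 21 lower (15 lower in the large, 6 higher in the small subunit) and a difference of subunit medians of -0.020. Scaling to genes that are not ribosomal proteins gave 21 lower (14 large, 7 small). eBayes without the trend left 1 small-subunit member higher. voom gave 13 higher and 22 lower (15 lower in the large, 7 higher and 7 lower in the small subunit). With a mean of at least 1 RPKM, 9 related genes were higher and 14 lower, of fewer tested. As an RPKM sum, the share of the members differed by -0.604 percentage points, against -0.217 in reads.

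With each library left out, 4 to 11 members were higher and 6 to 26 lower, 3 to 5 and 6 to 19 in the large and 1 to 6 and 0 to 7 in the small subunit, and 10 to 18 related genes were higher and 16 to 23 lower. The 0 arose without BAZ2A wt replicate 1, 2 or 3, each with 4 lower by limma at an unadjusted p under 0.05. Alternatives chosen after seeing the data moved the ratio of subunits, which differed by -0.0188 without called members, -0.0223 with members that share at most 25% of windows, -0.0305 without *Rpl4* and *Rplp1*, and -0.0554 as RPKM.

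The sign reversed for *Rpl39* under quantile scaling (-0.094), scaling to other genes (-0.018) and without BAZ2A ΔTAM replicate 2 (-0.052), replicate 3 (-0.035) or BAZ2A wt replicate 1 (-0.033), with 0.084 as its highest value with a library left out, for *Rpl22* under scaling to other genes (-0.0025), for *Rpl7* (-0.035) and *Rpl8* (0.089) under quantile scaling, for *Rpl6l* without BAZ2A ΔTAM replicate 4 (0.019, lowest with a library left out -0.25) and for *Rpsa* without BAZ2A ΔTAM replicate 1 (0.0050, lowest with a library left out -0.029). None of these 6 genes was called as reported, and *Rpl8* was called lower in 3 alternatives (voom, scaling to other genes, and without BAZ2A wt replicate 4), with adjusted p from 0.0110 to 0.302 over all 19. The cause was not tested.

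Deviations of same-numbered libraries correlated weakly, at 0.024 to 0.062, and those of libraries with different numbers at -0.061 to 0.028. BAZ2A wt replicates 1, 2 and 4 each correlated best with the BAZ2A ΔTAM library of the same number, at 0.062, 0.033 and 0.055. BAZ2A wt replicate 3 correlated best with BAZ2A ΔTAM replicate 1 (0.026 against 0.024). Whether the numbers pair the libraries was not tested. With a replicate block, 12 of the 20 called members kept their call, with 1 small-subunit member higher and 1 lower. *Rpl24* and *Rpl6l* rest on 6 to 20 reads per library, which limits the precision of their fold changes.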

Other observations

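*Rpl10l*, an intronless paralogue of *Rpl10* that the symbol rule leaves out, was chosen here after its values were seen. It had 21.9, 24.2, 24.5 and 19.5 RPKM in BAZ2A wt and 28.0, 30.4, 29.5 and 30.9 RPKM in BAZ2A ΔTAM. All 4 BAZ2A ΔTAM libraries lay above all 4 BAZ2A wt libraries, and the log2 fold change was 0.40 ± 0.075 (SE, limma adjusted p = 0.00475 over 9000 genes). None of its 100-base windows occurs in another gene. *Rpl10* had a log2 fold change of 0.097 ± 0.049 (SE, limma adjusted p = 0.167). *Rpl10l*, like *Rpl39l*, is known for its use in male germ cells.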
